A study of Rattus norvegicus with 30 samples.

Results

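The Fc gamma receptors and their signalling partners were described in the brain RNA of 30 male rats on normal diet, of Sprague Dawley background, with 10 rats in each of 3 groups. The 7 members were the 4 receptor genes Fcgr1a, Fcgr2a, Fcgr2b and Fcgr3a, the adaptors Fcer1g and Tyrobp and the kinase Syk, and all 7 were among the 17134 genes with values. Their Ensembl identifiers are ENSRNOG00000021199 (Fcgr1a), ENSRNOG00000046663 with ENSRNOG00000049422 (Fcgr2a), ENSRNOG00000046452 (Fcgr2b), ENSRNOG00000024382 (Fcgr3a), ENSRNOG00000024159 (Fcer1g), ENSRNOG00000020845 (Tyrobp) and ENSRNOG00000012160 (Syk). The family was listed by gene name, and Fcgr2b was picked for its high level in AKO rats, so that its difference between AKO rats and the other groups and its correlations within AKO rats are given below as a description, with no test. WT rats carry endogenous rat amylin. HIP rats express human amylin, the amyloid-forming form, in pancreatic β-cells, which limits the transgene to the pancreas. According to the paper, HIP rats also develop diabetes with dysregulated glucose. AKO rats are amylin knockout rats, and the amylin gene itself was not analysed here. The study methods give an age of 15 to 16 months for HIP and WT rats, and the age of the sequenced AKO rats is not given in the sources used here. The tissue is called frontal cortex in the sample annotation, cerebral cortex in the methods and hippocampus in the text on the results. No source used here says how many litters or cages the rats came from, so p-values measure the spread between these rats.

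Fc gamma receptors bind the constant part of immunoglobulin G. Fcgr1a, Fcgr2a and Fcgr3a are the activating side: once clustered by antibody-coated material, they signal through an ITAM, a tyrosine motif that recruits the kinase Syk. Fcgr1a and Fcgr3a use the ITAM of the adaptor Fcer1g, the common gamma chain. Fcgr2b is the inhibitory receptor of the family and signals through an ITIM, which recruits phosphatases such as Inpp5d. Tyrobp, also called DAP12, is the ITAM adaptor of Trem2 and other myeloid receptors. In brain these genes are expressed mainly in microglia and in the macrophages of the meninges and vessels, and Fcgr2b is also the Fc gamma receptor of B cells.

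All values are normalized counts as deposited, and differences are on the scale log2(normalized count + 1), which understates the change of low genes. Each library held an estimated 12.9 to 23.6 M (mega) reads on genes, with medians of 19.1 M for WT, 15.7 M for HIP and 16.1 M for AKO. Some rats stood apart in tissue markers. WT rat 10RT43 had a mean log2 level of 12.4 over 10 cerebellum genes, beside 4.03 to 4.57 in the other WT rats, and 6.45 over 12 neocortical layer genes, beside at least 9.51 in the others. HIP rat 12RT23 reached 9.42 over the cerebellum genes, HIP rat 10RT46 reached 8.87 over 10 pineal gland genes and 8.37 over 11 choroid plexus genes, and AKO rat 7AKO19 reached 6.39 over the choroid plexus genes. Striatum and olfactory bulb genes varied widely between the rats of every group. Over 10 striatum genes the maximum was 10.34 in WT, 9.87 in HIP and 10.32 in AKO rats (medians 8.28, 7.98 and 8.24). Over 9 olfactory bulb genes it was 9.49, 8.64 and 9.37 (medians 4.34, 4.89 and 5.41). Rat 4KAH27 had the highest striatum level and the lowest olfactory bulb level of the AKO rats. HIP rat 10RT48 had the highest level of the microglia genes, 9.98, beside at most 9.18 in the other HIP rats. The microglia genes themselves were present: none of the 19 listed genes with a value was at 0 in any rat.

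In the comparisons with AKO rats, for which it was chosen, Fcgr2b had the largest log2 difference of the 7 members. In WT rats its normalized count ranged from 45.7 (rat 10RT45) over a median of 57.9 to 76.5 (rat 10RT55). In HIP rats it ranged from 34.4 (rat 10RT42) over a median of 59.4 to 125.7 (rat 10RT48), and the second highest HIP rat, 10RT37, had 78.0. In AKO rats it ranged from 78.9 (rat 6KAH99) over a median of 139.02 to 488 (rat 4KAH27), and the second highest AKO rat, 7AKO42, had 195. All 10 AKO rats were thus above every WT rat, and WT and AKO rats did not overlap. The gap between them was small, from 76.5 in the highest WT rat to 78.9 in the lowest AKO rat. AKO and HIP rats overlapped, with 6 of 10 AKO rats above the highest HIP rat, and 10RT48 was the HIP rat that made them overlap. Every AKO rat was above rat 10RT37.

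The mean normalized count of Fcgr2b was 58.8 ± 10.6 in WT rats, 62.8 ± 25.5 in HIP rats and 170.0 ± 119.9 in AKO rats (SD, n = 10 per group). The log2 difference was 1.32 for AKO vs. WT rats and 1.29 for AKO vs. HIP rats, which share the AKO rats. Without rat 4KAH27, which had the highest value, these differences were 1.13 and 1.10, and without rat 10RT48 the difference for AKO vs. HIP rats was 1.41. Of 17058 genes, 2 had every AKO rat above every WT rat (0.0117%), Fcgr2b and Fcho1, the latter named after its values were seen. By size of the log2 difference for AKO vs. WT rats, Fcgr2b was at rank 66 of the 17058 genes, and at rank 38 of the 15514 genes whose mean reached 10. Since Fcgr2b was chosen for this pattern, these values describe the choice. In HIP vs. WT rats, a comparison that the choice did not use, the log2 difference was 0.03 with a 95% interval from -0.34 to 0.40 (limma, adjusted p = 0.999).

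**Figure D1:**
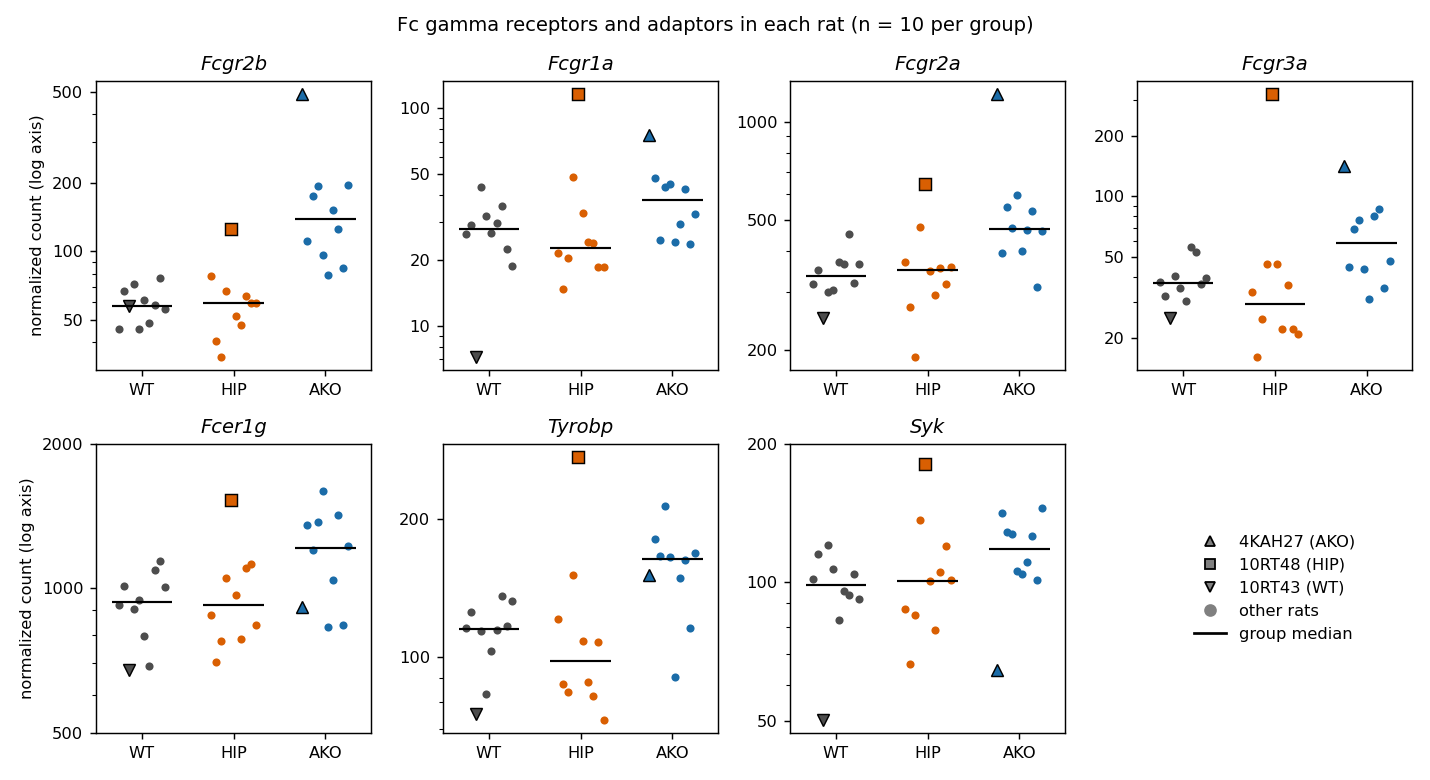
Normalized count of each member in each rat (log axis) for WT, HIP and AKO rats, with a line at the group median and separate symbols for 3 rats. Fcgr2b in the AKO rats lies between 78.9 and 488, above the WT rats, and 10RT48 is the highest HIP rat in every panel.

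The activating receptors overlapped between the groups. Fcgr2a, an activating receptor whose row merges 2 Ensembl identifiers and lies beside near-identical copies in the reference, had a range of 251 to 453 (median 337) in WT rats, 190 to 646 (median 352) in HIP rats and 311 to 1213 (median 469) in AKO rats. Of the AKO rats, 7 of 10 were above every WT rat and the groups overlapped. This row is uncertain: its estimated reads were whole in 6 of 30 rats, beside 30 of 30 for Fcgr2b. Whether reads were shared between the copies was not tested. The log2 difference for AKO vs. WT rats was 0.58 (SE 0.17, limma, adjusted p = 0.259).

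Fcgr3a, the low-affinity activating receptor, ranged from 25.1 to 56.3 (median 37.2) in WT rats, from 16.03 to 320 (median 29.2) in HIP rats and from 31.2 to 141.3 (median 58.6) in AKO rats. The value of 320 belonged to rat 10RT48, and the other 9 HIP rats had at most 46.5. In AKO rats 5 of 10 were above every WT rat, and the log2 difference for AKO vs. WT rats was 0.64 (SE 0.23, limma, adjusted p = 0.384). Fcgr1a, the high-affinity receptor and the member with the lowest counts, ranged from 7.18 to 43.7 (median 27.8) in WT rats, from 14.8 to 116 (median 22.8) in HIP rats and from 23.7 to 75.4 (median 37.7) in AKO rats. Its lowest value rested on 6.00 estimated reads in rat 10RT43, the WT rat with the high level of cerebellum genes. The log2 difference for AKO vs. WT rats was 0.53 (SE 0.26, limma, adjusted p = 0.543), and it was 0.34 without rat 10RT43.

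The signalling partners overlapped between the groups too. Fcer1g, the common gamma chain, ranged from 676 to 1137 (median 935) in WT rats, from 701 to 1524 (median 923) in HIP rats and from 831 to 1595 (median 1213) in AKO rats. Its estimated reads were whole in 0 of 30 rats, so this row is uncertain too, and the cause was not tested. Tyrobp ranged from 75.3 to 136.4 (median 115) in WT rats, from 73.2 to 273 (median 98.2) in HIP rats and from 90.6 to 214 (median 164) in AKO rats, and 8 of 10 AKO rats were above every WT rat. Syk, the kinase that binds phosphorylated ITAMs, ranged from 50.2 to 121 (median 98.7) in WT rats, from 66.6 to 181 (median 101) in HIP rats and from 64.5 to 144.99 (median 118) in AKO rats. The lowest AKO rat for Syk was 4KAH27, the rat that was highest for Fcgr2b.

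The promoters of Fcgr3a and Syk are shown because these members went to opposite ends of the AKO group in rat 4KAH27. The sequences are 300 bases from RefSeq in the build GRCr8, 5′ to 3′ on the strand of the gene, from 250 bases before to 50 bases after its start. Capitals mark the letters GAGGAA, the core of sites for the myeloid factor PU.1, or its reverse complement, and an interferon-stimulated response element, searched as a pair of GAAA with any 2 bases between them. The sequence table matched 3 of the 7 members, Fcgr2a (with 2 start sites, not printed), Fcgr3a and Syk.
Fcgr3a, plus strand, chr13:85782386-85782685: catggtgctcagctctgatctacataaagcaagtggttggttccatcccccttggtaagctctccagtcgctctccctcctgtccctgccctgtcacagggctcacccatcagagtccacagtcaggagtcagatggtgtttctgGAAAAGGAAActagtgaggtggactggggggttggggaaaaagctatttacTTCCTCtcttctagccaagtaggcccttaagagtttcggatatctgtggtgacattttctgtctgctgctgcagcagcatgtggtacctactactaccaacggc
Syk, minus strand, chr17:12813224-12813523: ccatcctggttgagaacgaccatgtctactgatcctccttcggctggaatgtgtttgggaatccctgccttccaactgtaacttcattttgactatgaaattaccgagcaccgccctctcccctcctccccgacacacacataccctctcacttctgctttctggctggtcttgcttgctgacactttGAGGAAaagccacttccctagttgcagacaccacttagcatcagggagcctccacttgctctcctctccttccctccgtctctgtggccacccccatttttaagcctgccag

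In the Fcgr3a promoter the reverse complement of GAGGAA began 54 bases before the gene start, and the interferon-stimulated response element lay farther upstream without overlap. In the Syk promoter GAGGAA began 62 bases before the gene start, and the element was not found. Of the 2 Fcgr2a promoters, one held GAGGAA at 2 positions and the other at 0, and neither held the element. A link between these letters and the levels in any rat was not tested. On both strands, GAGGAA stood in 27.6% of 33469 promoters of this length and the interferon-stimulated response element in 3.92% of them. Another set of letters, TTCNNNGAA of a gamma-activated site, stood in 8.87% of the promoters and in none of the windows of these 3 members.

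The first comparison, HIP vs. WT rats, asked whether human amylin from the pancreas goes with a change in brain gene expression. Human amylin and the diabetes of HIP rats cannot be told apart in it. None of the 7 members passed the test: 0 of 7 had an adjusted p under 0.05 and 0 of 7 an unadjusted p under 0.05 (limma), and voom called 0 of 7 too. The background was 0% of 17085 genes at the adjusted threshold, and 439 genes (2.57%) at the unadjusted threshold. The log2 differences ran from -0.06 for Fcgr3a to 0.14 for Fcgr1a, with a median of 0.04 beside 0.00 over all genes. The 95% intervals were wide for the lower genes, from -0.84 to 0.71 for Fcgr3a and from -0.54 to 0.81 for Fcgr1a, so differences as large as these bounds remain possible. Leaving out rat 10RT48 moved Fcgr3a to -0.41 and Tyrobp to -0.16. With the estimated reads of each rat as a covariate, which were higher in WT rats, the differences were 0.72 for Fcgr1a, 0.44 for Syk, 0.35 for Fcer1g, 0.25 for Fcgr3a, 0.23 for Tyrobp, 0.22 for Fcgr2a and 0.03 for Fcgr2b. None of the 7 passed the adjusted threshold in that fit, which called 4.33% of all genes. The estimated reads were 13.7 to 16.7 M in HIP rats and at least 16.3 M in WT rats other than 10RT43. That rat, with high cerebellum genes, had 12.9 M and was not left out of a fit with this covariate. The fit can therefore hardly separate reads from group, and nothing further is read from it.

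The second comparison, AKO vs. WT rats, set amylin knockout rats beside rats with rat amylin. All WT and HIP rats carry the letters RT in their names and no AKO rat does. The age of the AKO rats is not given either. In both AKO comparisons, genotype can therefore not be told apart from the origin or age of the rats. Apart from Fcgr2b, 0 of 6 members had an adjusted p under 0.05, with adjusted p-values from 0.259 to 0.595, beside 0.0997% of all tested genes in either direction. At an unadjusted p under 0.05, 4 of 6 members passed, all higher in AKO rats, namely Fcgr2a, Tyrobp (0.47, SE 0.14), Fcgr3a and Fcer1g (0.35, SE 0.13), beside 5.23% of all tested genes that passed in that direction. Fcgr1a and Syk (0.26, SE 0.15) did not pass, and Syk was at 0.16 without rat 10RT43. Weighting the rats by their quality (arrayWeights) called 3 of 6 members, Fcgr2a, Fcgr3a and Tyrobp, in a fit that called 5.02% of all genes, beside 0.0997% without weights. The median log2 difference of the 6 members was 0.50, beside 0.00 over all genes. Because the family was listed with earlier results of these rats known, nothing further is read from these counts.

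AKO and HIP rats, the remaining pair, gave the same count at the adjusted threshold, 0 of 6 members beside 0.17% of 17092 genes. At the unadjusted threshold 2 of 6 passed, Fcgr2a (log2 difference 0.54, SE 0.20) and Tyrobp (0.49, SE 0.20). Of all tested genes, 6.9% passed it and were higher in AKO rats. The differences of the 6 members ran from 0.14 for Syk to 0.70 for Fcgr3a (SE 0.40). Rat 10RT48 bore on these values: without it Fcgr3a was at 1.05, Fcgr1a at 0.62 in place of 0.39, and Tyrobp at 0.63.

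**Figure D2:**
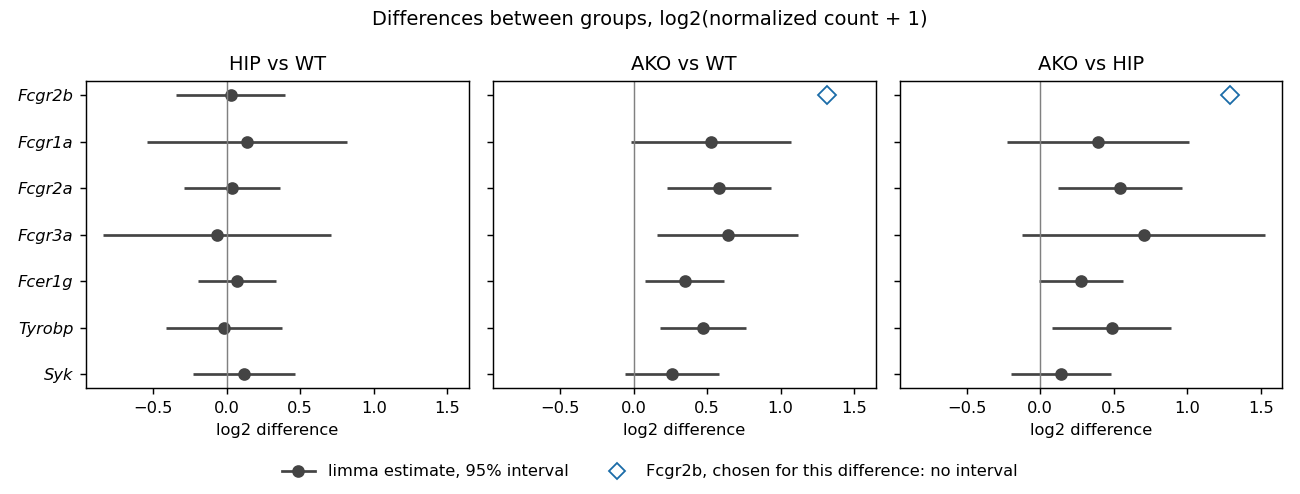
Log2 difference of each member in the 3 comparisons, with 95% intervals from limma (n = 10 rats per group), and Fcgr2b as an open diamond without an interval where it was chosen for the difference. The intervals of HIP vs. WT rats all span 0, and Fcgr2b stands at 1.32 and 1.29 in the AKO comparisons, to the right of the other 6 members.

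Microglia genes were counted beside the members. In AKO vs. WT rats, 0 of 19 microglia genes passed the adjusted threshold. At the unadjusted one 10 of 19 passed, all higher in AKO rats, beside 5.23% of all tested genes in that direction. Of the 19, 15 were above 0, and the median log2 difference was 0.31. The mean log2 level of the list was 8.34 to 9.35 in WT rats, 8.64 to 9.98 in HIP rats and 8.68 to 9.57 in AKO rats, where the lowest rat was 4KAH27. The largest differences of the list, picked after the values were seen, were those of Itgam, Cd68 and the complement genes C1qa, C1qb and C1qc, and the homeostatic microglia genes P2ry12 (log2 difference -0.08) and Tmem119 (-0.48) did not pass. In bulk tissue, more cells of a type and more RNA per cell cannot be told apart. With the list mean as a covariate, the difference for AKO vs. WT rats was 0.32 for Fcgr1a, 0.58 for Fcgr2a, 0.56 for Fcgr3a, 0.15 for Fcer1g, 0.27 for Tyrobp and -0.01 for Syk, and 1.43 for Fcgr2b. For AKO vs. HIP rats the same covariate gave 0.10 for Fcgr1a, 0.44 for Fcgr2a, 0.28 for Fcgr3a, 0.08 for Fcer1g, 0.22 for Tyrobp and -0.09 for Syk, and 1.18 for Fcgr2b. None of the 6 members other than Fcgr2b passed the adjusted threshold in these fits, and the values of Fcgr2b are a description. Both fits hold rat 4KAH27, with the highest Fcgr2b and the lowest list mean of the AKO rats, 8.68. The fit with WT rats also holds 10RT43, the WT rat with high cerebellum genes, lowest of its group at 8.34. Neither rat was left out of a fit with this covariate.

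Other cell types were counted in the same way in AKO vs. WT rats. Of the monocyte and neutrophil genes, 8 of 15 passed the unadjusted threshold, all higher in AKO rats, and of the border macrophage genes 3 of 9. Over all tested genes, 5.23% passed in that direction. Part of the monocyte and neutrophil list lay near 0: Cd177 and Mmp8 were at 0 in 11 of the 30 rats each and Camp in 8. The mean log2 level of that list was 2.88 to 5.32 in AKO rats and 1.96 to 3.10 in WT rats. For border macrophages it was 5.28 to 6.13 and 5.01 to 5.82. AKO rat 4KAH35, with an Fcgr2b count of 110.7, was highest in both lists. Rat 4KAH27, the highest for Fcgr2b, was second in the monocyte and neutrophil list at 5.06, beside at most 3.795 in the other 8 AKO rats, and had 5.54 in the border macrophage list. Of the red blood cell genes, 1 of 7 passed the unadjusted threshold and 7 of 7 were above 0, with a median of 0.55, and 4KAH35 was highest at 8.92, beside 7.07 in 4KAH27 and 5.50 to 6.82 in WT rats. The B cell list, which bears on Fcgr2b, had 2 of 5 genes past the unadjusted threshold, Cd22 and Ighm, and Cd79a was at 0 in 9 of the 30 rats. Its mean log2 level was 3.84 to 5.55 in AKO rats and 2.68 to 4.31 in WT rats. None of the 4 NK and T cell genes passed. The part of these cells in the Fcgr2b level was not tested.

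**Figure D3:**
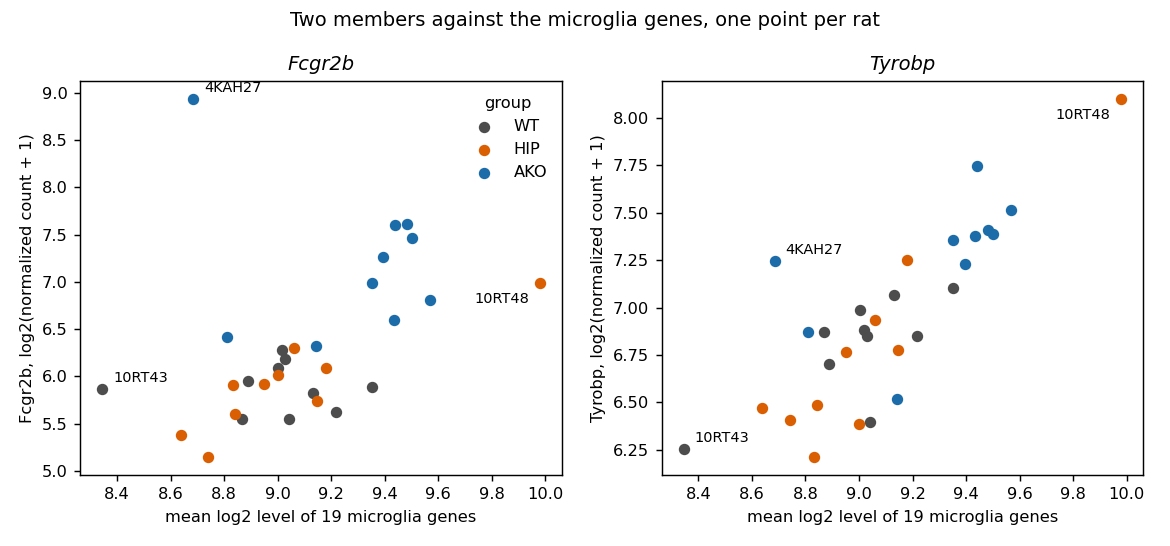
Fcgr2b (left) and Tyrobp (right) on the log2 scale against the mean log2 level of 19 microglia genes, one point per rat and colours for the groups. Rat 4KAH27 has the highest Fcgr2b with a microglia level of 8.68, the lowest of the AKO rats, and 10RT48 has the highest microglia level, 9.98.

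Within AKO rats, the members did not peak in the same rats. Rat 4KAH27 was first of the 30 rats for Fcgr2b and Fcgr2a and second for Fcgr1a and Fcgr3a. It was at rank 9 for Tyrobp, 19 for Fcer1g and 29 for Syk. Against the median of the other 9 AKO rats, its Fcgr2b was 3.88-fold, its Fcgr3a 2.94-fold, its Fcgr2a 2.60-fold and its Fcgr1a 2.31-fold, while Tyrobp was at 0.913, Fcer1g at 0.749 and Syk at 0.512. So the 4 receptors were high and the 3 partners were not in this rat. Of the 19 microglia genes, 9 were lower in it than in every other AKO rat, among them Cx3cr1 at 0.30 and P2ry12 at 0.285 of the median, and 2 were higher, C1qb and C1qc. Its estimated reads, 12.9 M, were the fewest of the 30 rats.

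HIP rat 10RT48 had another pattern. All 7 members were higher in it than in the other 9 HIP rats, from 1.73-fold the median for Fcer1g to 12.9-fold for Fcgr3a, with 5.38-fold for Fcgr1a, 3.09-fold for Tyrobp and 2.12-fold for Fcgr2b. Of the 19 microglia genes 15 were above every other HIP rat and 0 below. WT rat 10RT43 was lowest of the WT rats in 6 members, and its Fcgr2b, 57.4, was near the WT median.

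**Figure D4:**
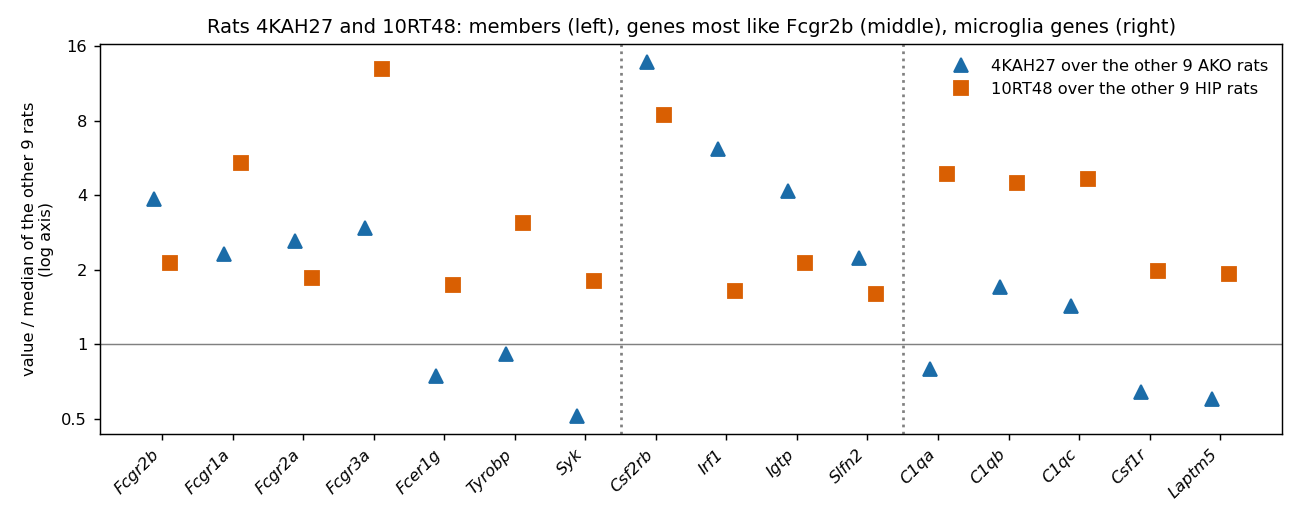
Value of rats 4KAH27 and 10RT48 divided by the median of the other 9 rats of their group (log axis) for the 7 members, for 4 genes most like Fcgr2b and for 5 microglia genes. In 4KAH27 the receptors lie above 1 and Fcer1g, Tyrobp and Syk below it, and in 10RT48 every gene shown lies above 1.

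Across rats, 13711 genes with a symbol and a mean of at least 10 were compared with each member by Pearson's r over the 30 rats on the log2 scale, after the group means were taken out, as a description over points that share group and library. The genes most like Fcgr2b were Fcgr2a (0.78), the cytokine receptor subunit Csf2rb (0.75), the interferon response genes Irf1 (0.75) and Igtp (0.74), and Slfn2 (0.72). In 4KAH27, Csf2rb was at 479, beside 17.0 to 40.3 in the other AKO rats, Irf1 at 828 beside 90.7 to 150.7, and Igtp at 610 beside 96.0 to 190. Without rats 4KAH27 and 10RT48 the 5 genes most like Fcgr2b were Lcp1 (0.65), RT1-Db1 (0.61), Jhy (0.60), Sox9 (0.59) and Gpsm3 (0.59), so the first list rests on these rats. Without centring, they were Fcgr2a (0.84), Ctss (0.79), C1qb (0.78), Fermt3 (0.77) and Hcar2 (0.76). Those most like Fcgr3a were C1qb (0.92), C1qc (0.88), Anxa3 (0.86), Hcls1 (0.85) and Irf8 (0.84), and those most like Fcgr1a were C1qc (0.88), C1qb (0.85), Anxa3 (0.83), Gpr84 (0.79) and Fcgr3a (0.79). Fcgr2a was most like Slfn2 (0.81), Gbp2 (0.79), Tspo (0.79), Fcgr2b (0.78) and Myd88 (0.77). Among the partners, Tyrobp was most like Irf8 (0.88), Npc2 (0.88), C1qa (0.87), Anxa3 (0.87) and Ctsz (0.85). Syk was most like Laptm5 (0.88), Csf1r (0.86), Sash3 (0.83), Pld4 (0.82) and Vsir (0.82), and Fcer1g like Laptm5 (0.79), Cmtm7 (0.78), Ifi27l2b (0.78), Cst3 (0.76) and Gpsm3 (0.76). Without the same 2 rats, 4 of these 5 genes were kept for Tyrobp and for Syk, 2 for Fcgr3a (C1qb and Irf8), 1 for Fcgr1a (C1qc) and 0 for Fcgr2a and Fcer1g. The first without these rats was then Smpd2 (0.73) for Fcgr2a, Rnf5 (0.80) for Fcer1g and Gsta1 (0.81) for Fcgr1a.

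Correlations between members were computed within each group, and 57 of the 63 pairs were tested, all but the 6 pairs with Fcgr2b in AKO rats (permutation test, 100000 resamples, Benjamini-Hochberg over the 57). In HIP rats 21 of 21 pairs had an adjusted p under 0.05 by Pearson's r and 3 by Spearman's rho. In WT rats these counts were 2 and 0 of 21 pairs, and in AKO rats 3 and 0 of 15. The median r of HIP rats was 0.81. It was 0.58 when the 2 rats farthest from the median of the first gene were left out, 10RT48 among them. The same step took the called pairs of WT rats from 0.89 to 0.17 (Fcgr1a and Syk) and from 0.76 to 0.41 (Fcgr2a and Tyrobp). Rat 10RT43 was left out of both. In AKO rats the called pairs fell from 0.74 to 0.13 (Fcgr1a and Fcgr2a) and from 0.79 to 0.43 (Fcgr2a and Fcgr3a). Fcer1g and Tyrobp fell from 0.80 to 0.54. For the 6 pairs with Fcgr2b, r ran from -0.19 to 0.37 in WT rats, from 0.76 to 0.93 in HIP rats and from -0.43 to 0.85 in AKO rats. In AKO rats, as a description, Fcgr2b and Fcgr3a had r = 0.85 (rho = 0.77), and r = 0.61 without rats 4KAH27 and 6KAH99. Fcgr2b and Fcgr2a had r = 0.81 (rho = 0.52), and r = 0.37 without those rats. Fcgr2b and Syk in AKO rats had r = -0.43, and 0.62 without the same rats.

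Fcgr2b lies in a cluster with other members. In the order of a RefSeq gene table of GRCr8, Fcrla, Fcgr3a and Fcgr2a are among the 20 genes nearest to it, of which 5 had values, with Atf6 and Dusp12. When the window was widened, after the values were seen, to 10 genes with values on each side, 17 of them were no members. Counted in gene order from Fcgr2b, they reached from position -24 (Ddr2) to position 111 (Adamts4). After Fcgr2a at position 9, the next gene with a value was Cfap126 at position 101, so that side lay mostly far from Fcgr2b. In AKO vs. WT rats 0 of these 17 passed the adjusted threshold. At the unadjusted one 1 passed, Fcrla, higher in AKO rats. Of all tested genes, 5.23% passed it and were higher. The median log2 difference of the 17 was -0.04, with a range of -0.59 to 0.89.

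**Figure D5:**
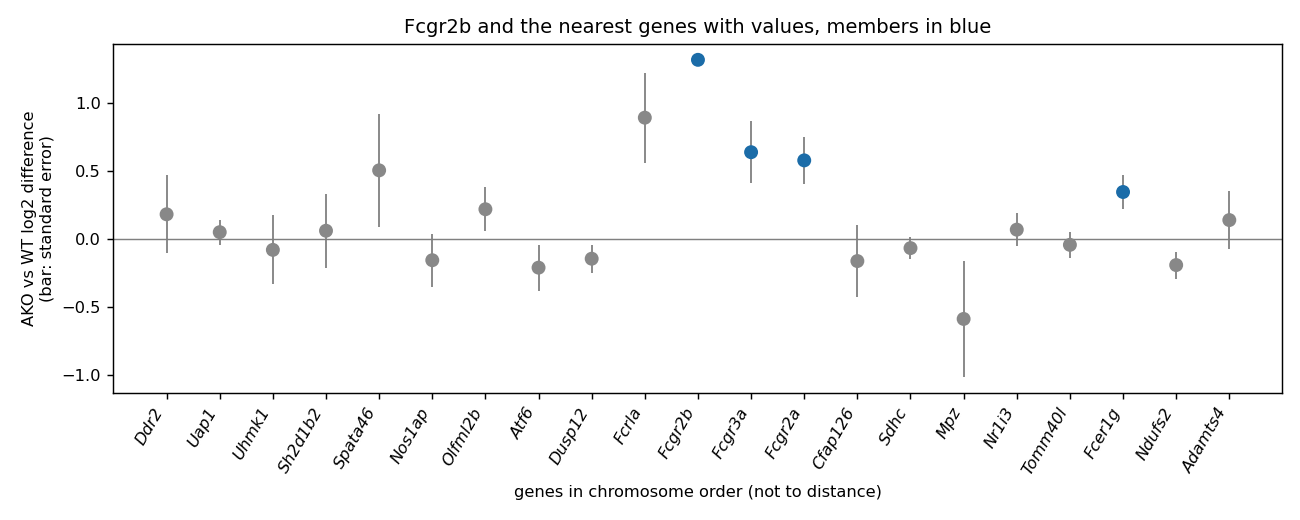
Log2 difference for AKO vs. WT rats of Fcgr2b and the 10 nearest genes with values on each side in chromosome order. Standard errors are drawn (none for Fcgr2b), and members are in blue. The genes lie at positions -24 to 111 from Fcgr2b in gene order, with no value between Fcgr2a at 9 and Cfap126 at 101. Fcgr2b stands at 1.32, the members Fcgr3a, Fcgr2a and Fcer1g lie between 0.35 and 0.64, and the 17 other genes range from -0.59 to 0.89.

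The wider pathway was counted over lists of partners, signalling genes and ligands. Of the inhibitory receptors and phosphatases, 1 of 26 passed the adjusted threshold in AKO vs. WT rats, Cd22, an inhibitory receptor of B cells, which rose by a log2 difference of 1.91 (SE 0.38, limma, adjusted p = 0.0467). Cd22 ranged from 1.04 to 12.3 in WT rats and from 8.23 to 47.9 in AKO rats, at low counts, and 38.7 was its highest HIP value. This call was kept in 6 of 20 fits that left out a rat, with adjusted p-values from 0.0230 to 0.112, and in 7 of 16 other fits. At the unadjusted threshold 6 genes of this list were higher and 1 was lower. Of all tested genes, 5.23% passed it and were higher. The list's median was 0.04, and 0.0997% of all tested genes passed the adjusted threshold.

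Of the ITAM kinases, adaptors and effectors, 0 of 29 passed the adjusted threshold in AKO vs. WT rats. At the unadjusted one 9 were higher and 0 lower, and the list's median was 0.33. Over all tested genes 5.23% were higher at that threshold, a share that also stands beside the lists that follow. Itgam and Itgb2, the subunits of complement receptor 3, had the smallest p-values of this list, with log2 differences of 0.87 (SE 0.18, limma, adjusted p = 0.0623) and 0.48 (SE 0.13, adjusted p = 0.218). Of 9 tested genes of the list of partner receptors, 0 passed the adjusted threshold and 3 were higher at the unadjusted one. They included Csf2rb (1.24, SE 0.42), at 0.85 without rat 4KAH27, and Treml1 (1.42, SE 0.52). The list was made by name, and pairing with Tyrobp or Fcer1g was not shown for each gene, Treml1 among them. Of the other Fc receptors, 3 of 5 were higher at the unadjusted threshold and 0 passed the adjusted one: Fcrla, an intracellular Fc receptor-like protein of B cells, had 0.89 (SE 0.33) and Fcmr, the receptor for immunoglobulin M, 0.51 (SE 0.23). Of the ligands, 1 of 4 was higher at the unadjusted threshold, Ighm (0.69, SE 0.29), and the pentraxin Ptx3 had 0.94 (SE 0.48).

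AKO vs. HIP rats gave 0 calls in these 5 lists. At the unadjusted threshold 3 of 5 other Fc receptors, 0 of 4 ligands and 2 of 9 listed partner receptors were higher in AKO rats. So were 7 of 29 ITAM genes and 3 of 26 inhibitory genes, and 2 inhibitory genes were lower. Over all tested genes 6.9% passed this threshold and were higher in AKO rats. Cd22 had a log2 difference of 1.88 (SE 0.47), Fcrla 1.36 (SE 0.43), Treml1 1.36 (SE 0.45) and Itgam 0.85 (SE 0.21). Without rat 10RT48, Cd22 (2.21) and Itgam (0.98) passed the adjusted threshold (limma, adjusted p = 0.0114 and 0.0205). In HIP vs. WT rats 0 genes of the 5 lists passed the adjusted threshold and 1 passed the unadjusted one, Trim21, named after its values were seen. Over all tested genes 2.57% passed the unadjusted threshold in either direction.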

How the data were processed

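RNA was sequenced from 30 rats with a SMARTER mRNA-Seq kit. The submitters' processing notes name Partek 10.0.22.0228, STAR 2.7.8a, Bowtie2 and DESeq2, and the genome build rn7, and the methods name the Ensembl 105 annotation. Each deposited value is a signal, a count that the authors normalized with DESeq2, and values are not whole: 80.9% to 84.4% of the values under 100 in each rat were whole multiples of 1 read (tolerance 0.02), so no test of whole counts was run. Reads per rat were estimated from that step and set the precision of low genes.

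Groups were compared by limma 3.58.1 (lmFit and eBayes with a trend, two-sided) in R 4.3.3 on log2(normalized count + 1), without covariates, over genes whose mean reached 1 in the 20 rats compared. P-values were adjusted by Benjamini-Hochberg over all genes tested, and the threshold was 0.05. Fcgr2b was not tested in the AKO comparisons or in correlations within AKO rats. Correlations used permutation tests with 100000 resamples (Python 3.11.15, scipy 1.17.1). The members, the gene lists and the tests were chosen with earlier results of these data known. The genes named are the members, the called genes of each pathway list or else the 2 of smallest p over the comparisons, the neighbours of Fcgr2b, and the 5 genes most like each member.

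The alternatives were pseudocounts of 0.1 and 5, no filter, a minimum mean of 10, a fit of all 30 rats together and robust eBayes. They also included arrayWeights, quantile and median-ratio normalization, voom and 3 covariates. Each rat was left out in turn, and 3 sets of rats were left out together. Of these sets, 2 were chosen after the data were seen, and the set of 4 rats was known from earlier results of these data. Rats that stand apart were found by the 95% critical value of Dixon's test on the normalized counts of each group.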

Additional observations from a re-analysis of the deposited data

Results flagged for a closer look

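In 9 of 21 member and group combinations, a rat lay farther from its group than the 95% critical value of Dixon's test allows. For normally distributed values chance marks about 1 in 20 such groups, or 1.05 of 21. The test was run on normalized counts, not on the log2 scale, and their distribution was not checked. The members are also not independent of each other, so the 9 marks are a description and are not set against chance. HIP rat 10RT48 was the highest in 5 of these, at a normalized count of 125.7 for Fcgr2b, 116.2 for Fcgr1a, 320.5 for Fcgr3a, 1524 for Fcer1g and 273 for Tyrobp. AKO rat 4KAH27 was the highest in the other 4, at 488 for Fcgr2b, 75.4 for Fcgr1a, 1213 for Fcgr2a and 141.3 for Fcgr3a. The mark on Fcgr2b in AKO rats concerns 1 rat within that group, not the level of the group. The part of tissue composition in these values was not tested.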

How the results depend on the processing

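Over the 7 members the count past the adjusted threshold kept its value except under arrayWeights in AKO vs. WT rats (3 of 6) and without rats 10RT43, 10RT46, 10RT48 and 7AKO19 in AKO vs. HIP rats (1 of 6, Tyrobp, 0.72). Leaving out 1 rat in turn gave 0 in every comparison. Fcgr2b stayed at 1.09 to 1.43 in AKO vs. WT rats and at 1.10 to 1.44 in AKO vs. HIP rats over all alternatives. In HIP vs. WT rats, where differences are near 0 and without a call, the sign turned for Fcgr2b under arrayWeights (-0.0195), quantile normalization (-0.0019) and the microglia covariate (-0.010), for Fcgr2a under arrayWeights (-0.057) and the microglia covariate (-0.00801), for Fcgr1a (-0.10) and Syk (-0.042) under arrayWeights, and for Fcgr3a and Tyrobp with the number after S in the label (0.014 and 0.020) or estimated reads (0.25 and 0.23) as a covariate, the fit that also raised Fcgr1a to 0.72, Syk to 0.44, Fcer1g to 0.35 and Fcgr2a to 0.22. Without 10RT43, 10RT46, 10RT48 and 7AKO19 the values were -0.13 for Fcgr2b, -0.40 for Fcgr1a, -0.18 for Fcgr2a, -0.079 for Fcer1g and -0.13 for Syk. Without 12RT23 and 4KAH27 as well they were -0.15, -0.38, -0.21, -0.0685 and -0.15, and without 4KAH27 and 10RT48 alone they were -0.092 for Fcgr2b, -0.090 for Fcgr1a, -0.063 for Fcgr2a and -0.0053 for Fcer1g. Both of these last sets were chosen after the data were seen, and the 4 rats of the first set were known from earlier results of these data. Leaving out 1 rat at a time gave -0.092 to 0.11 for Fcgr2b, -0.090 to 0.23 for Fcgr1a, -0.063 to 0.13 for Fcgr2a, -0.41 to 0.061 for Fcgr3a, -0.0053 to 0.12 for Fcer1g and -0.16 to 0.045 for Tyrobp. Syk turned under the microglia covariate in AKO vs. WT (-0.014) and AKO vs. HIP rats (-0.090). Over all genes, AKO vs. WT rats gave 17 calls, 10 to 39 with 1 rat left out, 857 with arrayWeights, 5 with the microglia covariate, 27 with all 30 rats in one fit, 31 with the number after S, 39 without 4KAH27 and 10RT48, and 35 without the 6 rats. AKO vs. HIP rats gave 29 calls, 17 to 70 with 1 rat left out, 1143 with arrayWeights, 56 with all 30 rats, and 81, 63 and 59 without the 2, 6 and 4 rats. HIP vs. WT rats gave 0 calls, and 740 with estimated reads as a covariate, a fit that can hardly separate reads from group. The causes were not tested. Fcgr1a and Cd22 rest on low counts. No paired analysis was possible because the labels carry no replicate numbers shared by the groups.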

Other observations

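The names of the AKO rats hold 2 letter codes, KAH in 4 rats and AKO in 6, and no source used here says what they stand for. The median Fcgr2b was 103 in the KAH rats (78.9 to 488) and 164 in the AKO-coded rats (84.2 to 195), and both ranges lay above the WT rats. The median Syk was 104.99 and 127 in the same rats, and that of Fcgr1a 46.5 and 31.0.

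Relative to the other members in the same rat, the log2 ratio of Fcgr2b to Fcgr2a was -2.96 to -2.07 in WT rats, -2.83 to -2.25 in HIP rats and -2.64 to -1.24 in AKO rats. The log2 ratio of Fcgr2b to Tyrobp was -1.34 to -0.39 in WT rats, -1.29 to -0.30 in HIP rats and -0.78 to 1.69 in AKO rats, with the highest value in 4KAH27. These are values of a gene chosen for its level in AKO rats and carry no test.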
